A study of Solanum lycopersicum with 12 samples.

Results

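Within the 8 leaf libraries of the edited tomato lines slmyb60Cr1 and slmyb60Cr2, replicates 1 and 2 of both lines were compared with replicates 3 and 4 of both lines, 4 libraries against 4, and the direction of the differences was then read in the wild type, where replicates 1 and 2 face replicates 3 and 4 with 2 libraries on each side. The 8 libraries are part of a series of 12. The replicate numbers are those of the library titles. Neither the labels nor the methods say what a number stands for, such as a tray, a day or a sequencing lane, so anything that separated the numbers cannot be told apart here.

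All plants were of the tomato cultivar Red Setter. The edited lines carry homozygous CRISPR/Cas9 deletions in SlMYB60, were used as T2 plants without the Cas9 insertion, and are each represented by a single line. The wild type is the unedited cultivar. The labels give water stress, imposed by withholding irrigation for 14 days, for every library, edited and wild type alike, whereas the study's methods for the RNA samples mention no water deficit. Each replicate pooled leaf discs from several plants. Poly(A) RNA was sequenced, and the levels are given in TPM, a unit of transcript abundance scaled for transcript length that sums to 1000000 in every library and carries no read depth, so the counting error of single genes is unknown. No table pairing the deposited identifiers with gene names was at hand, so only genes that the study names are named here, and the leaf label was not checked against marker genes.

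SlMYB60 is an R2R3 MYB transcription factor. Its Arabidopsis relative AtMYB60 is known for its part in stomatal opening in guard cells, and many R2R3 MYB factors act on the cuticle, the lipid layer of cutin and waxes that covers the leaf epidermis. Biological replicates of a genotype are meant to differ only by chance, so that a difference shared by the same numbered replicates of several genotypes adds to the spread against which genotypes are compared. In this series each genotype has 2 libraries in each replicate set, so the replicate sets are balanced over the genotypes.

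The split was proposed after a principal component of these same 12 libraries, wild type included, had separated replicates 1 and 2 from replicates 3 and 4. The tests below therefore describe which genes differ and by how much, and are no independent evidence that the sets differ. On that component, which held 27.7% of the variance of the 12 libraries, the scores were 70.5 and 15.6 in replicates 1 and 2 and −34.8 and −13.3 in replicates 3 and 4 of slmyb60Cr1. In slmyb60Cr2 they were 32.7 and 10.1 in replicates 1 and 2 and −52.6 and −33.5 in replicates 3 and 4. In the wild type they were 28.9 and 22.6 in replicates 1 and 2, against −15.0 and −31.2 in replicates 3 and 4. Replicate 1 of slmyb60Cr1 stood apart from the other libraries, and its part in the results is given where it was measured. Between 20316 and 20964 genes reached 0.5 TPM in a library, and the 50 most abundant genes held 15.0% to 17.2% of the TPM.

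SlMYB60 itself (Solyc10g081490), which checks the labels, was low in every edited library. It had 1.57 and 2.10 TPM in replicates 1 and 2 of slmyb60Cr1 and 2.19 and 2.61 TPM in replicates 1 and 2 of slmyb60Cr2, against 2.78 and 2.30 TPM in replicates 3 and 4 of slmyb60Cr1 and 3.15 and 2.87 TPM in replicates 3 and 4 of slmyb60Cr2. Within each line the sets were apart, with replicates 1-2 lower, although the sets overlapped across the lines. Pooled over the lines, their means of 2.12 ± 0.427 and 2.77 ± 0.352 TPM (SD, n = 4 each) did not differ past the threshold (exact permutation test that took no account of line, two-sided, p = 0.0571, where the smallest possible p is 0.0286). The gene had 12.9 and 12.3 TPM in replicates 1 and 2 of the wild type and 19.3 and 21.6 TPM in its replicates 3 and 4. The wild type sets did not overlap. The log2 fold change of replicates 1-2 over replicates 3-4 was −0.39 in the edited lines (limma, line taken into account, unadjusted p = 0.0262, adjusted p = 0.0931). It was −0.69 in the wild type (limma unadjusted p = 0.00333, adjusted p = 0.183). The difference between wild type and edited lines in this respect was not past the threshold (limma adjusted p = 0.551).

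Of the 33976 genes in the table, 20879 reached at least 0.5 TPM in at least 4 of the 8 edited libraries and were tested. At this limit, 368 genes reached 0.5 TPM in exactly 4 libraries and were kept, with a median of 0.551 TPM, and 344 genes reached it in exactly 3 and were left out, with a median of 0.452 TPM. Differences were tested with limma on log2(TPM + 0.1), with genotype as a covariate and the Benjamini-Hochberg adjustment over all genes tested. All fold changes refer to log2(TPM + 0.1), so those of genes with low TPM are understated, and they are positive where replicates 1-2 were higher. A gene was called at an adjusted p below 0.05 together with a log2 fold change above 1 or below −1, the thresholds that the study used between genotypes.

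In the edited lines, 544 genes were called, 2.61% of those tested. Replicates 1-2 were higher in 369 of them (1.77% of the genes tested) and lower in 175 (0.838%). Of the 368 genes at the limit of exactly 4 libraries, 58 were called (15.8%), and such genes can pass the limit through the set where they are high. Among the other 20511 genes, 486 were called (2.37%). The median log2 fold change was 1.48 over the genes called higher and −1.34 over the genes called lower, beside 0.09 over all genes tested. Large differences were mostly rises, since 109 called genes rose by more than 2 on the log2 scale and 23 fell by more than 2. Without the fold limit, 3407 genes passed the adjusted p (16.3%), of which 2760 were higher (13.2%) and 647 lower (3.1%) in replicates 1-2, so that 81.01% were higher. Both the number and this split depended on the scaling between libraries. Quantile normalization gave 1256 genes, 57.8% of them higher, and median-of-ratios scaling gave 1380, 50.4% of them higher. At an unadjusted p below 0.05 there were 7482 genes, 35.8% of those tested. The genes called were less abundant than most, with a median level over all 12 libraries of 3.60 TPM for those called higher and 7.66 TPM for those called lower, beside 15.9 TPM for all genes tested. In 477 of the 544 genes every library of one set lay above every library of the other, and in 67 the sets overlapped. Over all genes tested, 21.4% had sets that did not overlap, 17.5% with replicates 1-2 above and 3.9% with replicates 1-2 below.

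The number of genes called rested on single libraries. With 1 edited library left out it ranged from 0 to 826. Without replicate 1 of slmyb60Cr1, the library that stood apart, 156 genes were called, 129 higher and 27 lower, of which 148 were among the 544. Leaving out replicate 1 of slmyb60Cr2 gave 3 genes, replicate 3 of slmyb60Cr1 gave 0 genes and replicate 3 of slmyb60Cr2 gave 39 genes. Leaving out replicate 2 of slmyb60Cr1 gave 826 genes, and the numbers were 385, 379 and 293 without replicate 4 of slmyb60Cr1, replicate 2 of slmyb60Cr2 and replicate 4 of slmyb60Cr2. The adjusted p of limma passed for no gene without replicate 3 of slmyb60Cr1, yet 5694 genes were at an unadjusted p below 0.05. The fold changes moved less than the calls. All 544 genes kept their direction with each of the 8 libraries left out, and between 449 and 540 of them stayed beyond a log2 fold change of 1 in that direction. These fits share most of their libraries with the full comparison. With both replicate 1 libraries left out, a setting added once the data had been seen, limma called 0 genes, with 4461 genes at an unadjusted p below 0.05, and 385 of the 544 genes stayed beyond a log2 fold change of 1. With the fold limit built into limma's own test, 1 gene passed.

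**Figure D1:**
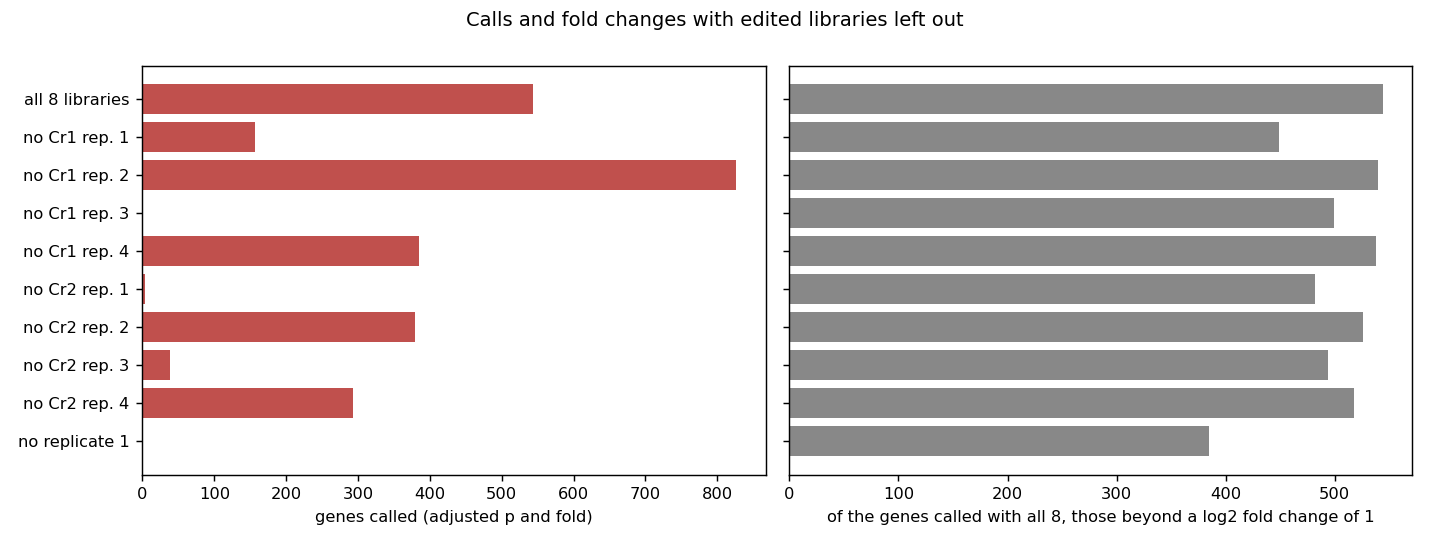
The left panel gives the number of genes called with all 8 edited libraries, with each of them left out and with both replicate 1 libraries left out, and the right panel gives how many of the 544 genes called with all 8 stayed beyond a log2 fold change of 1 in the same direction. The calls range from 0 to 826, and the right bars from 385 to 544.

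Both lines contributed to the comparison. All 544 genes had the same direction in slmyb60Cr1 and in slmyb60Cr2, as the joint test favours, whereas 73.0% of all genes tested did. Taken alone in the fit of all 12 libraries, where the spread is shared over the genotypes, slmyb60Cr1 gave 23 genes (16 higher and 7 lower in replicates 1-2, 0.11% of those tested) and slmyb60Cr2 gave 128 (104 higher and 24 lower, 0.613%), and 9 genes were called in both. The difference of the replicate sets between the lines was tested as an interaction. By limma, 0 genes passed (smallest adjusted p = 0.383). At an unadjusted p below 0.05 there were 1421 genes, 6.81% of those tested, of which 22 were among the 544, a smaller share of the called genes.

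The wild type libraries had no part in the call. Of the 544 genes, 505 (92.8%) differed in the same direction between replicates 1-2 and replicates 3-4 of the wild type, while 63.2% of all genes tested had the same direction in edited lines and wild type. Among the genes higher in the edited replicates 1-2, 341 of 369 (92.4%) were also higher in the wild type replicates 1-2, where 47.0% of all genes tested were higher. Among the lower genes, 164 of 175 (93.7%) were lower in the wild type, as were 53.0% of all genes tested. Both wild type libraries of one set lay beyond both of the other, in the direction of the edited lines, for 401 of the called genes (73.7%) and for 36.7% of all genes tested. They lay apart in the opposite direction for 6 called genes (1.1%), against 14.1% of all genes tested. In either direction, 50.8% of all genes tested had wild type sets that did not overlap. Since the first principal component included the wild type, these shares restate in single genes what that component showed.

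The share with the same direction was larger among genes with larger differences in the edited lines. It was 59.9% of the 17553 genes with an absolute log2 fold change below 0.5, 79.4% of the 2247 genes between 0.5 and 1, 81.1% of the 879 genes between 1 and 2, and 86.0% of the 200 genes beyond 2. Among the 3407 genes that passed the adjusted p at any fold, it was 75.0%, with 71.2% for those higher and 91.0% for those lower in the edited replicates 1-2.

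The size of the wild type differences was read as a description. Their median was 0.87 over the genes called higher in the edited lines and −0.90 over the genes called lower, beside −0.02 over all genes tested, and 241 of the 544 genes (44.3%) were beyond a log2 fold change of 1 in the same direction in the wild type, beside 4.00% of all genes tested. In 478 of the 544 genes the wild type difference was the smaller one. The edited libraries chose these genes and the wild type libraries did not, so the 2 sizes are not on an equal footing. Tested directly, the difference between wild type and edited lines passed for 0 genes by limma (smallest adjusted p = 0.0604). At an unadjusted p below 0.05 there were 2762 of the 20879 genes tested, of which 109 were among the 544. That is a larger share of the called genes than of all genes tested. In the wild type alone, limma called 3 genes in the fit of all 12 libraries (2 higher and 1 lower in replicates 1-2, 0.0144% of those tested), with 3184 genes at an unadjusted p below 0.05. Of these 3 genes, 2 were among the 544.

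**Figure D2:**
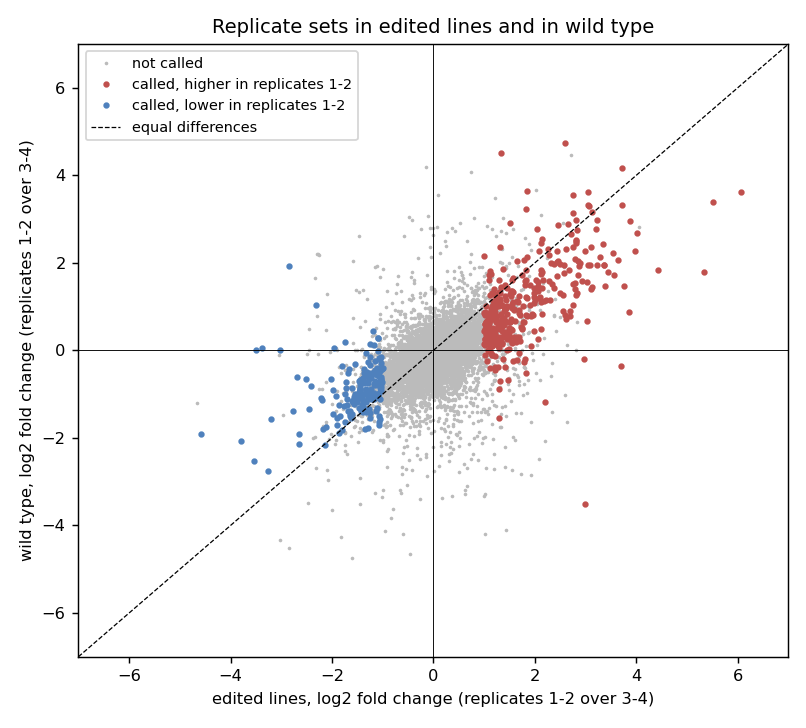
Each point is a gene, with its log2 fold change of replicates 1-2 over replicates 3-4 in the edited lines on the horizontal axis and in the wild type on the vertical axis, and the dashed line marks equal differences. Of the 544 called genes, 505 lie in the quadrants of equal sign, and 478 have the smaller difference in the wild type.

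Summed over the called genes, the levels in each library showed the same order. In the edited libraries this follows from the call, and in the wild type it restates the first principal component, so the sums describe size only. The 369 genes called higher added up to 14695 and 7987 TPM in replicates 1 and 2 of slmyb60Cr1 and 9576 and 7718 TPM in replicates 1 and 2 of slmyb60Cr2, against 3617 and 4758 TPM in replicates 3 and 4 of slmyb60Cr1 and 2709 and 3182 TPM in replicates 3 and 4 of slmyb60Cr2. In the wild type the sums were 8235 and 7335 TPM in replicates 1 and 2 and 4759 and 3502 TPM in replicates 3 and 4, so that the wild type sets did not overlap either. The 175 genes called lower added up to 8169 and 18158 TPM in replicates 1 and 2 of slmyb60Cr1 and 11930 and 15060 TPM in replicates 1 and 2 of slmyb60Cr2. In replicates 3 and 4 they reached 36057 and 22407 TPM in slmyb60Cr1 and 46045 and 32126 TPM in slmyb60Cr2. Wild type sums were 17882 and 23463 TPM in replicates 1 and 2 and 28906 and 39326 TPM in replicates 3 and 4. These sums rest on few genes, since 1 gene held 34.8% of the TPM of the genes called lower and 10 genes held 75.5%, while 10 genes held 36.9% of the TPM of the genes called higher.

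**Figure D3:**
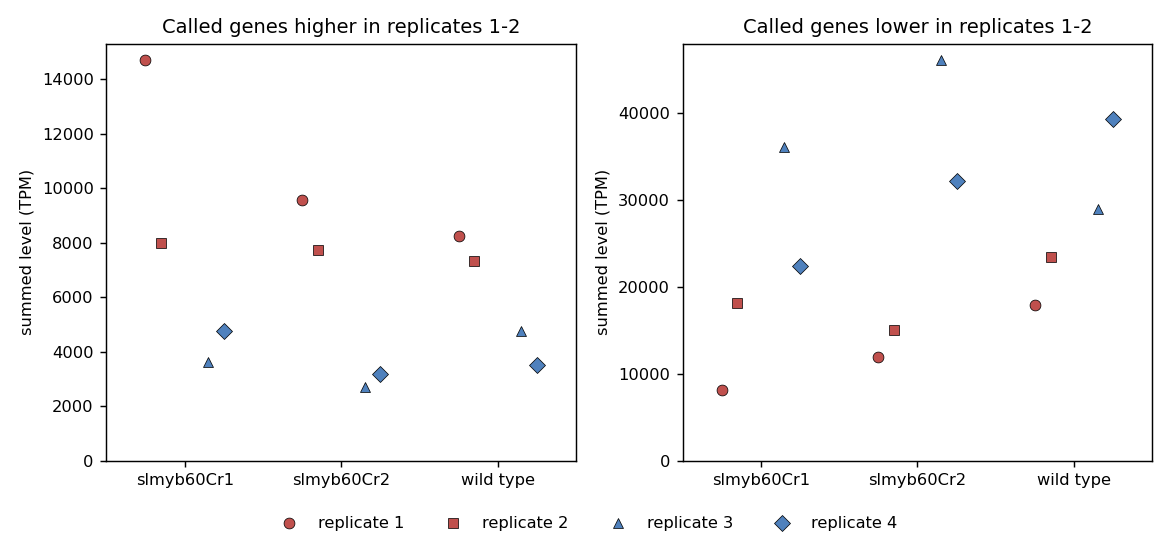
Points give the summed TPM of the genes called higher (left) and lower (right) in replicates 1-2 of the edited lines, 1 point for each of the 12 libraries, by genotype and replicate number. Replicate 1 of slmyb60Cr1 has the highest sum on the left, 14695 TPM, and the lowest on the right, 8169 TPM. The edited sets are apart by the choice of the genes. The wild type sets are also apart, and these libraries did not choose the genes but were part of the component that gave the split.

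Replicates 1 and 2 were not alike. In slmyb60Cr1, replicate 1 was the highest of the 4 libraries for 318 of the 369 genes called higher (86.2%) and the lowest for 159 of the 175 called lower (90.9%), beside 37.9% and 29.8% of all genes tested. In slmyb60Cr2, replicate 1 was the highest for 245 genes (66.4%) and the lowest for 146 (83.4%), beside 37.7% and 20.4% of all genes tested. In both edited lines, replicates 3 and 4 were outermost for 0 of these genes, as the call favours. The choice there lay between replicates 1 and 2, whereas the shares of all genes are spread over 4 libraries and are no like baseline. Replicate 2 was the highest for 51 genes in slmyb60Cr1 and 124 in slmyb60Cr2, and the lowest for 16 and 29. In the wild type, replicate 1 was the highest for 206 of the genes called higher (55.8%) and the lowest for 106 of those called lower (60.6%), beside 30.8% and 20.3% of all genes tested. The replicate 1 library thus held the outermost level of more of these genes than the replicate 2 library in every genotype.

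The widest differences belonged to genes without a name. Beyond a log2 fold change of 3 were 35 genes called higher and 8 called lower. The 4 genes given by identifier are examples and not the 4 widest. Solyc02g093180 had 198 and 12.8 TPM in replicates 1 and 2 of slmyb60Cr1 and 56.3 and 12.02 TPM in replicates 1 and 2 of slmyb60Cr2, against 0.555 and 1.95 TPM in replicates 3 and 4 of slmyb60Cr1 and 0.136 and 0.177 TPM in replicates 3 and 4 of slmyb60Cr2 (log2 fold change 6.06, standard error 0.94, limma adjusted p = 0.0200). The wild type had 17.1 and 4.37 TPM in replicates 1 and 2 and 0.745 and 0.499 TPM in replicates 3 and 4. The sets did not overlap in any genotype, and replicate 1 was far above replicate 2 in all 3. Solyc02g076910 had 102 and 3.08 TPM in replicates 1 and 2 of slmyb60Cr1 and 23.7 and 4.46 TPM in replicates 1 and 2 of slmyb60Cr2, against 0.0743 to 0.654 TPM in the 4 libraries of replicates 3 and 4 (log2 fold change 5.52, limma adjusted p = 0.0266). Its wild type levels were 2.68 and 3.67 TPM in replicates 1 and 2 and 0.277 and 0.154 TPM in replicates 3 and 4, with no overlap, and here replicate 1 was not above replicate 2.

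On the other side, Solyc09g072750 had 0.849 and 9.10 TPM in replicates 1 and 2 of slmyb60Cr1 and 1.95 and 4.75 TPM in replicates 1 and 2 of slmyb60Cr2, against 33.9 and 17.2 TPM in replicates 3 and 4 of slmyb60Cr1 and 56.6 and 46.3 TPM in replicates 3 and 4 of slmyb60Cr2 (log2 fold change −3.53, limma adjusted p = 0.0275). The wild type had 5.43 and 11.9 TPM in replicates 1 and 2 and 27.3 and 80.6 TPM in replicates 3 and 4, again with no overlap. Solyc11g021060 had 2.62 to 14.9 TPM in the edited replicates 1-2 and 22.4 to 112 TPM in the edited replicates 3-4 (log2 fold change −2.77, limma adjusted p = 0.0345). Its wild type sets overlapped, with 10.0 and 2.96 TPM in replicates 1 and 2 and 6.02 and 34.7 TPM in replicates 3 and 4. Of the 8 libraries left out in turn, 5 ended the call of Solyc09g072750, 7 that of Solyc11g021060, 6 that of Solyc02g076910 and 3 that of Solyc02g093180.

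The called genes lay on all 12 chromosomes, as their identifiers give them, with 2.00% to 3.08% of the tested genes of a chromosome called, and 4 of the 95 genes numbered to no chromosome were also called. In the order of the identifiers, 56 of the 544 (10.3%) stood next to another called gene of the same direction. No baseline was worked out for this share, so it does not tell whether called genes lie together.

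Genes that the study names were used where their identifiers could be read, and entries with garbled identifiers were dropped, so that the list is shorter than the study's. Among these 122 genes, SlMYB60 left out, 105 were tested and 7 were called (6.67%, beside 2.61% of all genes tested), all of them higher in replicates 1-2. The study chose most of these genes for their difference between edited lines and wild type in these same libraries, so they are no neutral sample of the genome. Without the fold limit, 12 were higher and 3 lower, 14.3% of those tested beside 16.3% of all genes.

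Among named genes with a mean of at least 5 TPM, the largest rise belonged to a glucan endo-1,3-beta-glucosidase (Solyc02g086700), an enzyme class that cuts callose and other beta-1,3-glucans of the wall. It had 213 and 177 TPM in replicates 1 and 2 of slmyb60Cr1 and 180 and 138 TPM in replicates 1 and 2 of slmyb60Cr2, against 65.5 and 69.99 TPM in replicates 3 and 4 of slmyb60Cr1 and 64.4 and 64.9 TPM in replicates 3 and 4 of slmyb60Cr2. The 4 lower libraries were nearly level and far from the others (log2 fold change 1.40, standard error 0.11, limma adjusted p = 0.00855). The wild type had 38.6 and 62.7 TPM in replicates 1 and 2 and 30.4 and 21.7 TPM in replicates 3 and 4, with no overlap and a log2 fold change of 0.93. With 1 edited library left out the log2 fold change was at least 1.33, and the call was lost in 2 of the 8 cases.

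A zinc finger protein named WIP3 (Solyc06g074360), of a family of plant transcription factors, had 10.6 and 8.95 TPM in replicates 1 and 2 of slmyb60Cr1 and 8.16 and 7.43 TPM in replicates 1 and 2 of slmyb60Cr2, against 3.34 and 3.59 TPM in replicates 3 and 4 of slmyb60Cr1 and 3.64 and 4.39 TPM in replicates 3 and 4 of slmyb60Cr2 (log2 fold change 1.21, standard error 0.14, limma adjusted p = 0.0162). The edited sets were apart, but the wild type sets overlapped, with 1.71 and 4.14 TPM in replicates 1 and 2 and 3.37 and 2.52 TPM in replicates 3 and 4. The difference between wild type and edited lines did not pass (limma adjusted p = 0.303). An MLO-like protein (Solyc11g069220), of the family known in barley for susceptibility to powdery mildew, had 17.8 and 9.90 TPM in replicates 1 and 2 of slmyb60Cr1 and 15.7 and 13.1 TPM in replicates 1 and 2 of slmyb60Cr2. In replicates 3 and 4 it had 4.86 and 8.60 TPM in slmyb60Cr1 and 5.92 and 6.42 TPM in slmyb60Cr2 (log2 fold change 1.11, limma adjusted p = 0.0298). Its wild type levels overlapped, with 4.75 and 5.66 TPM in replicates 1 and 2 and 5.02 and 3.74 TPM in replicates 3 and 4, and here too the difference did not pass (limma adjusted p = 0.401). The call of WIP3 was lost in 3 of the 8 cases with 1 library left out, and that of the MLO-like gene in 6. The MLO-like call was also lost with quantile normalization and median-of-ratios scaling (limma adjusted p = 0.0520 and 0.0505).

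Of the genes called, 2 belong to the cuticle list. The ABC transporters Solyc05g051530 and Solyc05g051540 are neighbours on chromosome 5, and reads that fit both could have been split between them by the estimate of transcript levels. Some plant ABC transporters of the G class carry cutin and wax components out of epidermal cells. Solyc05g051530 had 103 and 67.8 TPM in replicates 1 and 2 of slmyb60Cr1 and 85.2 and 65.5 TPM in replicates 1 and 2 of slmyb60Cr2, against 27.4 and 46.9 TPM in replicates 3 and 4 of slmyb60Cr1 and 26.4 and 52.5 TPM in replicates 3 and 4 of slmyb60Cr2 (log2 fold change 1.11, standard error 0.28, limma adjusted p = 0.0415). Solyc05g051540 averaged 157 ± 42.9 TPM in the edited replicates 1-2 and 77.1 ± 26.2 TPM in the edited replicates 3-4 (SD, n = 4 each, log2 fold change 1.05, limma adjusted p = 0.0498). The edited sets were apart for both genes, whereas the wild type sets overlapped, at 24.0 and 28.2 TPM in replicates 1 and 2 and 24.7 and 16.6 TPM in replicates 3 and 4 for Solyc05g051530. Both calls were close to the threshold, and they were lost with 6 and 7 of the 8 libraries left out in turn. They were also lost with quantile normalization (limma adjusted p = 0.0614 and 0.0715), median-of-ratios scaling (0.0681 and 0.0835), no intensity trend (0.0544 and 0.0639) and no TPM limit (0.0508 and 0.0612). The wild type differences of 0.36 and 0.28 on the log2 scale did not differ from those of the edited lines past the threshold (limma adjusted p of the difference 0.522 and 0.498).

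**Figure D4:**
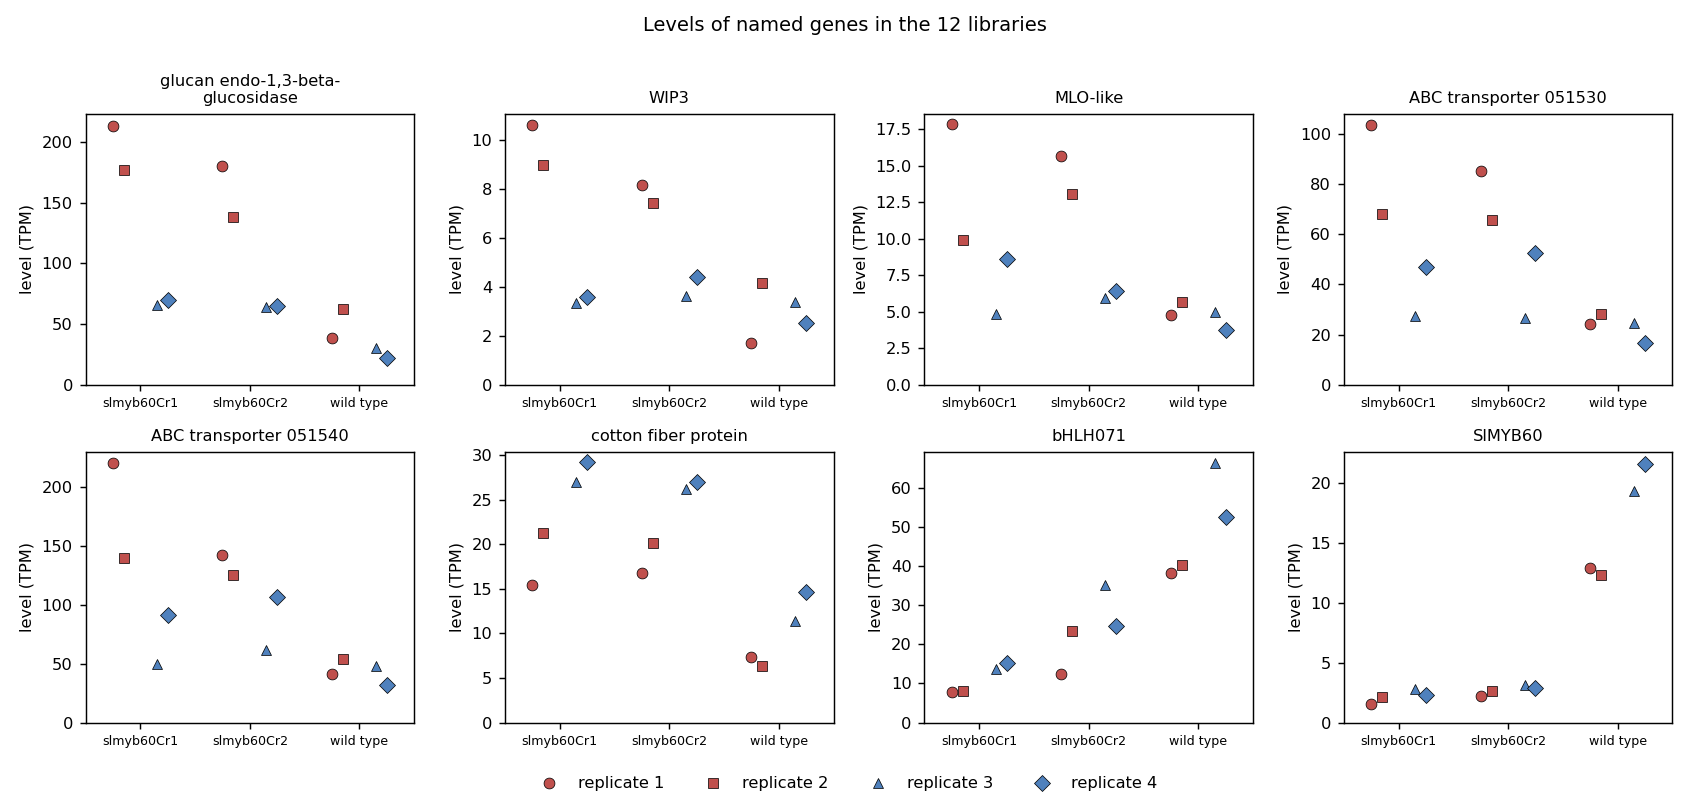
Each panel gives the TPM of 1 gene in the 12 libraries, by genotype and replicate number, on a linear axis that starts at 0. The edited sets are apart for the 5 called genes of the first panels and for the cotton fiber protein and overlap for bHLH071 and SlMYB60, and the wild type sets are apart for the glucan endo-1,3-beta-glucosidase, the cotton fiber protein, bHLH071 and SlMYB60.

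Of the genes called, 2 more had names but low levels and were not part of the naming rule. An MLP-like protein 43 (Solyc09g014580) averaged 2.00 TPM in the edited replicates 1-2 and was the largest rise in log2 fold change among named genes, at 1.46 (limma adjusted p = 0.0210). Its wild type sets were apart in the opposite direction, with 0.141 and 0.0791 TPM in replicates 1 and 2 and 0.186 and 0.280 TPM in replicates 3 and 4, all below 0.5 TPM (log2 fold change −0.67), and the difference between wild type and edited lines did not pass (limma adjusted p = 0.271). An aminotransferase (Solyc11g005860) averaged 3.80 TPM there, with a log2 fold change of 1.15 (limma adjusted p = 0.0468). Both were picked out after their values had been seen, and low levels make their fold changes depend on the pseudocount.

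Some named genes passed the adjusted p but not the fold limit and were therefore not called. The edited sets did not overlap for VQ motif-containing protein 29 (Solyc09g008760, 12.5 and 7.01 TPM on average in replicates 1-2 and 3-4, log2 fold change 0.82, limma adjusted p = 0.0166), a member of a family that binds WRKY factors. The same held for heat stress transcription factor B3 (Solyc10g079380, 8.14 and 4.10 TPM, log2 fold change 0.95, limma adjusted p = 0.0276). Its wild type difference was −0.38, which did not differ from that of the edited lines past the threshold (limma adjusted p = 0.296). The endo-1,4-beta-glucanase Cel2 (Solyc09g010210), which cuts wall glucans, averaged 36.9 and 19.6 TPM in replicates 1-2 and 3-4 (log2 fold change 0.90, limma adjusted p = 0.0297). A cupredoxin (Solyc01g108360, a copper protein) had a log2 fold change of 0.97, and NOD26-like intrinsic protein 1.1 (Solyc03g005980, of a family of aquaporins) one of 0.70. Wild type sets were apart only for VQ motif-containing protein 29 among these 5 genes, at 48.4 and 23.4 TPM in replicates 1 and 2 and 19.1 and 20.3 TPM in replicates 3 and 4.

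At an unadjusted p of limma below 0.05, 16 of the 105 named genes were higher and 14 lower, beside 35.8% of all genes tested in either direction. By limma, 0 named genes were called lower in replicates 1-2. The named genes with the smallest unadjusted p in that direction began with a cotton fiber protein (Solyc09g091270), which had 15.4 and 21.2 TPM in replicates 1 and 2 of slmyb60Cr1 and 16.8 and 20.1 TPM in replicates 1 and 2 of slmyb60Cr2, against 26.2 to 29.2 TPM in the 4 libraries of replicates 3 and 4 (log2 fold change −0.58, limma adjusted p = 0.0246). Its wild type levels did not overlap, with 7.30 and 6.35 TPM in replicates 1 and 2 and 11.4 and 14.6 TPM in replicates 3 and 4. The bHLH transcription factor 071 (Solyc12g036470) had 7.82 and 8.11 TPM in replicates 1 and 2 of slmyb60Cr1 and 12.4 and 23.5 TPM in replicates 1 and 2 of slmyb60Cr2, against 13.6 and 15.3 TPM in replicates 3 and 4 of slmyb60Cr1 and 35.2 and 24.7 TPM in replicates 3 and 4 of slmyb60Cr2 (log2 fold change −0.81, limma adjusted p = 0.0421). Within each line its sets were apart, although the lines overlapped, and in the wild type it had 38.3 and 40.3 TPM in replicates 1 and 2 and 66.3 and 52.5 TPM in replicates 3 and 4. The other 8 genes taken by this rule missed the adjusted p, at 0.0503 to 0.0979. They were the receptor-like kinase PERK4 (Solyc01g103470, log2 fold change −0.81), a lactoylglutathione lyase (Solyc01g103590, −0.67), the R2R3 MYB transcription factor 52 (Solyc03g093890, −0.69), an NRT1/PTR family protein (Solyc08g077170, −0.59), a MADS-box transcription factor (Solyc07g052700, −0.58), a calmodulin binding protein-like gene (Solyc03g113980, −0.49), a C1 domain family protein (Solyc06g072460, −1.04) and an expansin (Solyc09g018020, −0.43).

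Lists of genes that the study names, and which it chose on these libraries, were then described by role. Of 22 cuticle genes, 17 were tested, 2 were called higher and 0 lower by limma (11.8%, beside 2.61% of all genes tested). At an unadjusted p below 0.05, 3 were higher and 1 lower (beside 35.8% of all genes tested in either direction, a larger share than in this list). The median log2 fold change was 0.22 in the edited lines and 0.16 in the wild type, beside 0.09 and −0.02 over all genes tested, and 13 of the 17 values were positive, as were 64.7% of all genes. An acyl-transferase (Solyc05g052680) averaged 5.55 TPM in replicates 1-2 and 3.22 TPM in replicates 3-4 of the edited lines with no overlap (log2 fold change 0.77, limma adjusted p = 0.0549). The wild type sets of this gene were also apart, with 21.6 and 24.7 TPM in replicates 1 and 2 and 13.5 and 14.2 TPM in replicates 3 and 4. A peroxidase of the list (Solyc11g018774) had 4.51 TPM in replicate 1 of slmyb60Cr1 and 23.1 to 126 TPM in the other 7 edited libraries (log2 fold change −1.02, limma adjusted p = 0.492). This value rested on that 1 library, and without it the log2 fold change was 0.05.

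Of the xyloglucan endotransglucosylase/hydrolases (XTHs) that the study names, enzymes that cut and rejoin xyloglucan chains in the growing wall, 7 had a legible identifier. All 7 were tested and 0 were called by limma, with 0 at an unadjusted p below 0.05, beside 35.8% of all genes tested. Their values in the lines went different ways. All 7 were lower in replicates 1-2 of slmyb60Cr1 (median log2 fold change −1.84), while 6 of 7 were higher in replicates 1-2 of slmyb60Cr2 (median 0.22) and 5 of 7 in the wild type (median 0.39), beside 0.09, 0.09 and −0.02 over all genes tested. Without replicate 1 of slmyb60Cr1, a setting added after seeing the data, all 7 were still lower there, with a median of −1.39. The 105 tested genes that the study names, SlMYB60 left out, had medians of −0.42 in slmyb60Cr1, 0.18 in slmyb60Cr2 and −0.12 in the wild type. These 105 genes include the XTH genes and the other lists, so they are no separate baseline. The cuticle genes had a slmyb60Cr1 median of 0.15, with 11 of 17 positive, and of 0.18 without replicate 1. A lower slmyb60Cr1 was therefore seen in some of the study's lists but not in its cuticle list. XTH3 (Solyc03g093130) had 5.95 and 16.7 TPM in replicates 1 and 2 of slmyb60Cr1 and 18.8 and 22.3 TPM in replicates 1 and 2 of slmyb60Cr2, against 34.8 and 55.5 TPM in replicates 3 and 4 of slmyb60Cr1 and 16.1 and 22.4 TPM in replicates 3 and 4 of slmyb60Cr2. Replicates 3 and 4 of slmyb60Cr1 were thus the highest of the 12 libraries, and the wild type had 6.15 and 3.00 TPM in replicates 1 and 2 and 2.69 and 3.94 TPM in replicates 3 and 4.

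The neighbouring XTH genes Solyc03g093080, Solyc03g093110 and Solyc03g093120 had the same order, with 18.6 and 26.4 TPM, 15.4 and 22.0 TPM, and 10.2 and 13.9 TPM in replicates 3 and 4 of slmyb60Cr1 and at most 8.33, 6.61 and 3.65 TPM in the other edited libraries. These 4 genes lie close together on chromosome 3, and reads common to them could have been split between them. Of the 7 XTH genes, 5 had an unadjusted p below 0.05 for the difference between the lines, as had 6.81% of all genes tested, but none passed the adjusted p of limma (smallest 0.442).

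Of 11 other wall genes, 9 were tested and 0 were called by limma, with 1 higher and 1 lower at an unadjusted p below 0.05 and 1 at an adjusted p below 0.05, the endo-1,4-beta-glucanase Cel2 described above. Of all genes tested, 35.8% were at that unadjusted p and 16.3% at that adjusted p. Here too slmyb60Cr1 was lower in replicates 1-2 (8 of 9 genes, median −0.89), while the medians were 0.02 in slmyb60Cr2 and 0.02 in the wild type. Without replicate 1 of slmyb60Cr1 its median was −0.48, with 7 of 9 genes lower. With all libraries, the tested genes that the study names had medians of −0.42, 0.18 and −0.12 in slmyb60Cr1, slmyb60Cr2 and the wild type. Those genes include this list. The lower slmyb60Cr1 was shared with the XTH genes but not with the cuticle genes, whose slmyb60Cr1 median was 0.15. EXORDIUM-like 1 (Solyc04g074410), of a family tied to cell expansion in Arabidopsis, had 31.9 and 46.8 TPM in replicates 1 and 2 and 113 and 153 TPM in replicates 3 and 4 of slmyb60Cr1. In slmyb60Cr2 it had 52.8 and 63.4 TPM in replicates 1 and 2 and 29.2 and 43.9 TPM in replicates 3 and 4. The sets were therefore apart in both lines and in opposite directions, although the difference between the lines did not pass (limma adjusted p = 0.414, the smallest of the list). The cellulose synthase-like C4 (Solyc04g077470) had a log2 fold change of −1.13 in slmyb60Cr1 and 0.00035 in slmyb60Cr2, and a pectin methylesterase inhibitor family gene (Solyc03g083730) was lowest in replicate 1 of slmyb60Cr1, at 7.34 TPM, against 17.6 to 35.1 TPM in the other 7 edited libraries.

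Of 23 signalling and stress genes, 19 were tested. The MLO-like gene was called higher and 0 were called lower by limma (5.26% called, beside 2.61% of all genes tested). At an unadjusted p below 0.05, 3 of the list were higher and 2 lower (beside 35.8% of all genes tested in either direction, a larger share than in this list). The median was −0.65 in slmyb60Cr1, 0.06 in slmyb60Cr2 and −0.27 in the wild type, and 14 of 19 genes were lower in replicates 1-2 of slmyb60Cr1. Without its replicate 1 the slmyb60Cr1 median was −0.36, with 13 of 19 genes lower. The tested genes that the study names, which include this list, had a slmyb60Cr1 median of −0.42 with all libraries. The cuticle genes had a slmyb60Cr1 median of 0.15. A calcium-transporting ATPase (Solyc09g082870), a pump that removes calcium from the cytosol, had 2.72 and 4.47 TPM in replicates 1 and 2 and 10.2 and 13.8 TPM in replicates 3 and 4 of slmyb60Cr1, while slmyb60Cr2 had 5.31 and 6.55 TPM in replicates 1 and 2 and 5.90 and 4.87 TPM in replicates 3 and 4. As for the neighbouring XTH genes on chromosome 3, but not the other XTH genes, replicates 3 and 4 of slmyb60Cr1 stood above the rest. The Ethylene Response Factor D.4 (Solyc10g050970) varied most within a set. It had 0.329 and 7.20 TPM in replicates 1 and 2 of slmyb60Cr1 and 1.43 and 13.1 TPM in replicates 1 and 2 of slmyb60Cr2, against 12.8 and 20.6 TPM in replicates 3 and 4 of slmyb60Cr1 and 3.11 and 0.570 TPM in replicates 3 and 4 of slmyb60Cr2 (limma adjusted p = 0.717).

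**Figure D5:**
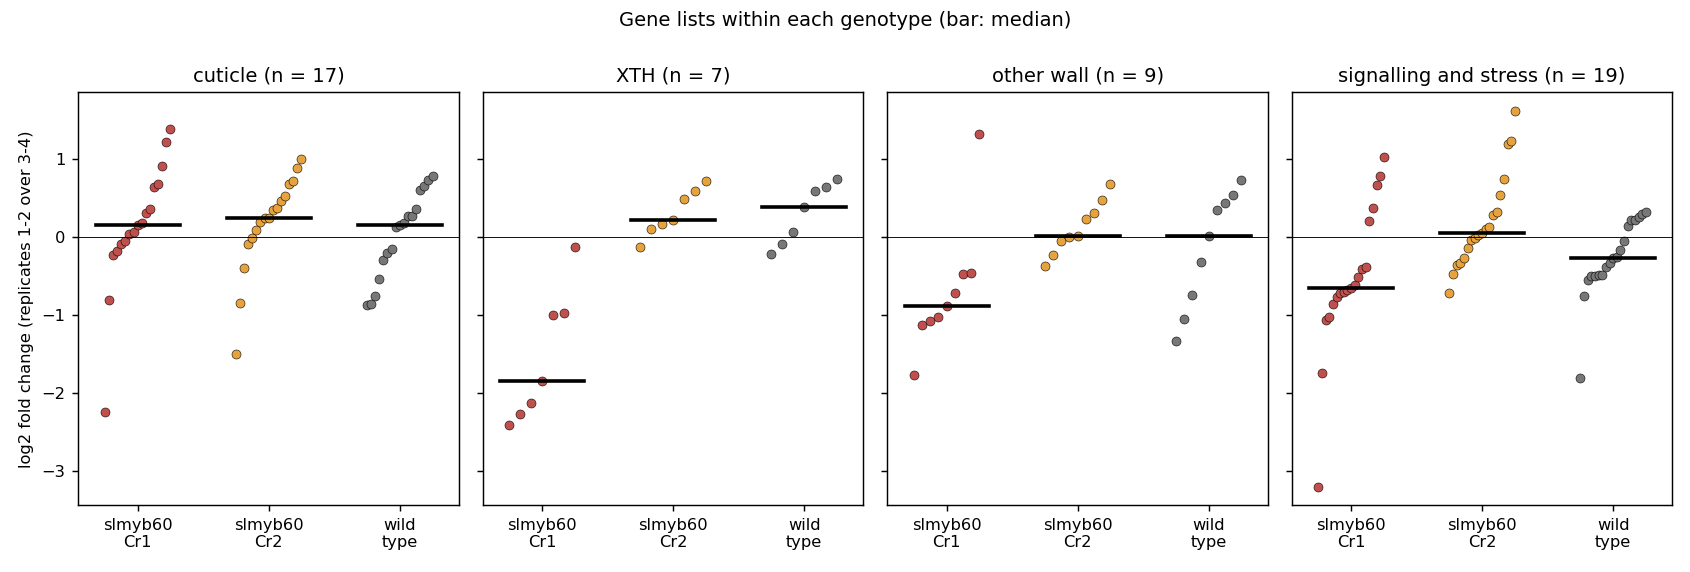
Points give the log2 fold change of replicates 1-2 over replicates 3-4 of each tested gene of 4 lists, separately in slmyb60Cr1, slmyb60Cr2 and the wild type, sorted within each column, and bars give the medians. The XTH median is −1.84 in slmyb60Cr1, 0.22 in slmyb60Cr2 and 0.39 in the wild type, whereas the cuticle medians are 0.15, 0.25 and 0.16.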

How the data were processed

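The authors trimmed the reads, ran Salmon on the ITAG tomato transcripts and deposited TPM, 1 value per gene and library with no pooling of replicates. The deposited TPM sum to 1000000 in each library, so that the table keeps no depth and count tests could not be used. For their own comparisons the authors used DESeq2. Libraries were grouped by genotype and replicate number from their titles. Values of log2(TPM + 0.1) were fitted with limma 3.58.1 under R 4.3.3, using its intensity trend. Genes entered the fit at 0.5 TPM or more in 4 or more of the 8 edited libraries. Wild type contrasts and interactions came from a fit of all 12 libraries with 1 coefficient per genotype and replicate set. The single-gene permutation test used scipy 1.17.1, figures matplotlib 3.10.9, and the fits were tested on simulated data.

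The comparison, lists and members were chosen with earlier results of these data known. Named genes are SlMYB60, the 10 largest rises and 10 largest falls among called genes with non-overlapping sets, a mean of at least 5 TPM in the higher set and a name in the study (the 5 with the smallest adjusted p included), filled up by smallest unadjusted p, up to 4 genes per list with the largest fold changes at that level, and 4 identifiers without a name. Of the deposited identifiers, 0 matched the gene table at hand, so lists defined by gene product, marker lists included, could not be applied, and no sequences are shown. Alternatives covered the pseudocount, TPM limit, scaling, variance model, covariate, replicate block, thresholds, libraries in the fit and leaving out each library. P values measure the spread between these libraries only.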

Additional observations from a re-analysis of the deposited data

Results flagged for a closer look

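For some named genes, 1 of the 4 edited libraries of a replicate set lay far from the other 3 by Dixon's criterion, which flags about 1 in 20 groups by chance. This occurred in 4 of 72 groups. VQ motif-containing protein 29 (Solyc09g008760) had 5.56 TPM in replicate 3 of slmyb60Cr2, below the other libraries of replicates 3-4. The lactoylglutathione lyase (Solyc01g103590) had 11.8 TPM in replicate 4 of slmyb60Cr2, above the others. The calmodulin binding protein-like gene (Solyc03g113980) had 21.7 TPM and the unnamed Solyc02g076910 had 0.654 TPM in replicate 4 of slmyb60Cr1, in both cases above the others of the set.

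Sets that were apart in opposite directions were looked for among the 36 genes taken by the naming rule, and 3 had them between slmyb60Cr1 and another genotype. Over the 105 tested genes that the study names, 9 had such sets between slmyb60Cr1 and slmyb60Cr2 (8.57%, beside 4.18% of all genes tested), and 9 between slmyb60Cr1 and the wild type (8.57%, beside 7.002%). The XTH gene Solyc03g093110 had a log2 fold change of −2.28 in slmyb60Cr1 and 0.49 in slmyb60Cr2, with a limma adjusted p of 0.444 for the difference between the lines. EXORDIUM-like 1 (Solyc04g074410) had −1.77 in slmyb60Cr1, against 0.69 in slmyb60Cr2 (limma adjusted p = 0.414) and 0.55 in the wild type. The XTH gene Solyc03g093080 had −1.84 in slmyb60Cr1 and 0.64 in the wild type. The differences between slmyb60Cr1 and the wild type were not tested.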

How the results depend on the processing

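Of the 544 called genes, all that were tested kept their direction under the alternatives that fitted the edited libraries, but the number called varied. With 1 edited library left out in turn it was 0 to 826 in all, 0 to 456 higher and 0 to 370 lower in replicates 1-2. It was 352 (240 higher, 112 lower) with a pseudocount of 1, 3407 (2760 and 647) without the fold limit, 1119 (738 and 381) at a fold change beyond 1.5, 1 (1 and 0) when tested against a log2 fold change of 1, and 0 (0 and 0) without both replicate 1 libraries. The last and the 1.5-fold limit were chosen after seeing the data. With slmyb60Cr1 alone it was 0 (0 and 0), with 3840 genes at an unadjusted p below 0.05 by limma, and with slmyb60Cr2 alone 1 (1 and 0), both with fewer samples. Quantile normalization gave 366 genes (217 higher) and median-of-ratios scaling 390 (237 higher), and moved the median of all genes to 0.02 and −0.00057. All 12 libraries in 1 fit gave 576 genes, of which 385 were among the 544.

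The 3 wild type calls became 1 with a pseudocount of 1, 0 with the wild type libraries alone and 0 to 10 with 1 wild type library left out. The share with the same direction in the wild type stayed between 88.4% and 100%, where 100% rests on 3 genes. With the replicate number as a random block, limma called 470 genes, all among the 544, and Solyc05g051540 and Solyc11g005860 were no longer called (limma adjusted p = 0.0573 and 0.0529). The replicate block was not used otherwise, and the main fit took the libraries as independent. Deviations of same-numbered libraries of slmyb60Cr1 and slmyb60Cr2 from their genotype means correlated at 0.471, 0.0799, 0.427 and 0.0794. They contain the difference of the sets itself, so they cannot decide whether the numbers pair the samples. The differences between the libraries within a set correlated at 0.215 and 0.0804 between these lines. Between an edited line and the wild type, the within-set correlations were −0.121 to −0.0028. Whether the numbers pair the samples was not settled by these values.

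Genes that were not called turned direction with slmyb60Cr2 alone, to a log2 fold change of 0.20 for the peroxidase, 0.22, 0.11, 0.49 and 0.17 for the XTH genes Solyc03g093120, Solyc03g093130, Solyc03g093110 and Solyc03g093080, 0.00035 for cellulose synthase-like C4, 0.69 for EXORDIUM-like 1, 0.13 for the calcium-transporting ATPase Solyc09g082870 and 1.62 for Ethylene Response Factor D.4. With 1 edited library left out in turn, the peroxidase (Solyc11g018774) lay between −1.61 and 0.054, the pectin methylesterase inhibitor gene (Solyc03g083730) between −0.84 and 0.062 and Ethylene Response Factor D.4 (Solyc10g050970) between −1.90 and 0.51, all 3 positive only without replicate 1 of slmyb60Cr1. Without both replicate 1 libraries the pectin methylesterase inhibitor gene was at 0.25 and Ethylene Response Factor D.4 at 1.01. The cause was not tested.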
